A study of Homo sapiens with 21 samples.

Results

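Ribosome assembly genes and the genes of the RNA polymerase I machinery were followed in MCF10A cells through 480 min of stimulation with epidermal growth factor (EGF). The members were the 34 gene symbols of a list of RNA polymerase I subunits and factors, small nucleolar ribonucleoprotein (snoRNP) proteins, and assembly factors of both ribosomal subunits. A member's value was the median of log2(intensity + 16) over the array probesets that the platform annotation named with its symbol only. Of the 34 members, 33 had at least 3 such probesets above the filter on dim signal, among 16614 genes tested of 19426 named ones, and NOP58 was not analysed here.

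RNA polymerase I transcribes the ribosomal DNA in the nucleolus into a long precursor of the ribosomal RNAs. That precursor is modified by snoRNPs, which are guided by small nucleolar RNAs, and is cut and folded while assembly factors add the ribosomal proteins, by way of a small subunit processome and of pre-40S and pre-60S particles. Making ribosomes takes much of the transcription of a growing cell, and growth factors are known to raise it in cells that leave quiescence.

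MCF10A is an immortalised, non-tumorigenic line of human mammary epithelial cells. At each EGF time the cells had received EGF at 20 ng/ml for 20, 40, 60, 120, 240 or 480 min, and the cells at 0 min had received none. All cells of all groups were of low passage and had first spent 24 h without EGF and 24 h in starvation medium with 1% horse serum. Each time had 3 arrays of separate cultures, 21 exon arrays in all, a number that limits how precise any value is. Unstimulated cells of later times were not analysed here, so EGF cannot be told apart from handling or time in culture, and the 6 comparisons against 0 min share the same 3 arrays.

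The arrays had medians of 20.44 to 20.56 intensity units, and the correlation across genes of replicates was 0.944 to 0.988. The 7 basal epithelial markers measured, among them KRT5 and TP63, lay between the percentiles 97.5 and 100 of all genes tested. The 8 luminal markers lay between 0.379 and 98.7, with KRT8 at 98.7, KRT18 at 95.1 and ESR1 at 20.6, and the 7 fibroblast markers lay between 10.6 and 69.7. The array index, which is the median log2 signal of named probesets minus that of unnamed ones, averaged between 1.27 and 1.32 at the EGF times and 1.24 ± 0.02 at 0 min (SD, n = 3 arrays per time). In bulk RNA, fewer cells of a type and less RNA per cell cannot be told apart.

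No member was called at 20 or 40 min, members began to be called at 60 min, and most were higher from 120 min on. A member was called when its adjusted p from limma was under 0.05. At 20 min 0 of the 33 members were called higher (0.897% of all genes tested were) and 0 lower (0.0843% of all genes). At an unadjusted p under 0.05, 7 members were higher and 1 lower, beside 2429 and 895 of the 16614 genes. At 40 min 0 were higher (1.82% of all genes) and 0 lower (0.415% of all genes). Without adjustment 5 members were higher and 1 lower there, beside 1213 and 755 of the 16614 genes. The members' changes ran from -0.29 to 0.62 at 20 min, with 21 of 33 above 0, and from -0.28 to 0.69 at 40 min, with 25 of 33 above 0. NOP16 changed by 0.62 ± 0.20 (adjusted p = 0.14) at 20 min and 0.69 ± 0.20 (adjusted p = 0.092) at 40 min, and UTP15 by 0.62 ± 0.19 (adjusted p = 0.12) and 0.50 ± 0.19 (adjusted p = 0.25). Leaving out array 3 of 20 min brought 3 members past the threshold at 20 min, with 881 of the 16614 genes called higher. Leaving out array 2 of 0 min brought 2 past it at 20 min (161 genes called) and 2 at 40 min (264 genes called). At 60 min 10 members were higher (4.82% of all genes), at 120 min 25 were (11.2% of all genes), at 240 min 28 were (13.5% of all genes) and at 480 min 29 were (15.5% of all genes).

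The members rarely went down. No member was called lower at 60 min (0.975% of all genes), at 120 min (3.21% of all genes) or at 240 min (6.21% of all genes). Without adjustment 0 members were lower at these times, beside 1029, 1323 and 1832 of the 16614 genes. At 480 min 1 member was lower, NCL (7.11% of all genes). The median change of the 33 members was 0.10 at 20 min, 0.10 at 40 min, 0.29 at 60 min, 0.62 at 120 min, 0.76 at 240 min and 0.74 at 480 min on the log2 scale. Over all genes tested the median change lay between 0.02 and 0.05 at the same times. The F-test over all 6 EGF times called 29 of the 33 members (27.5% of all genes), and NCL, NPM1, POLR1A and UBTF did not pass it.

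**Figure D1:**
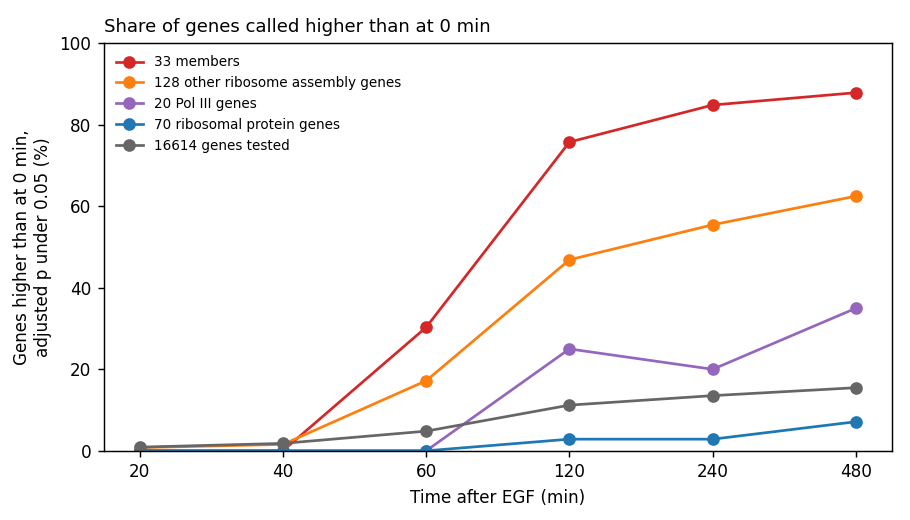
Share of genes called higher than at 0 min (percent, limma adjusted p under 0.05) by time after EGF (min, evenly spaced categories), for the 33 members, 128 other ribosome assembly genes, 20 genes of RNA polymerase III, 70 ribosomal protein genes and all 16614 genes tested; each point is a count over a list. The members' share passes that of all genes at 60 min, where 10 of 33 members are called, and 29 of 33 are called at 480 min.

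Of the steps between successive times, that from 60 to 120 min held called members. There were 6 of them, namely BOP1, DDX10, NOP2, NOP56, POLR1C and RRP1B (2.18% of all genes). The other 4 steps had 0 members called higher by limma, beside 0.482%, 0.156%, 0.445% and 0.782% of all genes in order of time. Without adjustment 1 of the 33 members was higher between 20 and 40 min (896 of 16614 genes were). Between 40 and 60 min 8 members were (891 genes), between 120 and 240 min 5 (536 genes) and between 240 and 480 min 1 (1008 genes). Between 60 and 120 min 18 members were higher (1423 genes) and 1 was lower (884 genes) without adjustment. Lower in the same way were 1 member between 20 and 40 min (1131 genes) and 3 between 240 and 480 min (785 genes). For 3 members the change was largest at 120 min, for 14 at 240 min and for 16 at 480 min. A total of 24 members were called higher at 120, 240 and 480 min alike. The share over all genes was not counted for this, and it is at most the 11.2% called at 120 min.

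**Figure D2:**
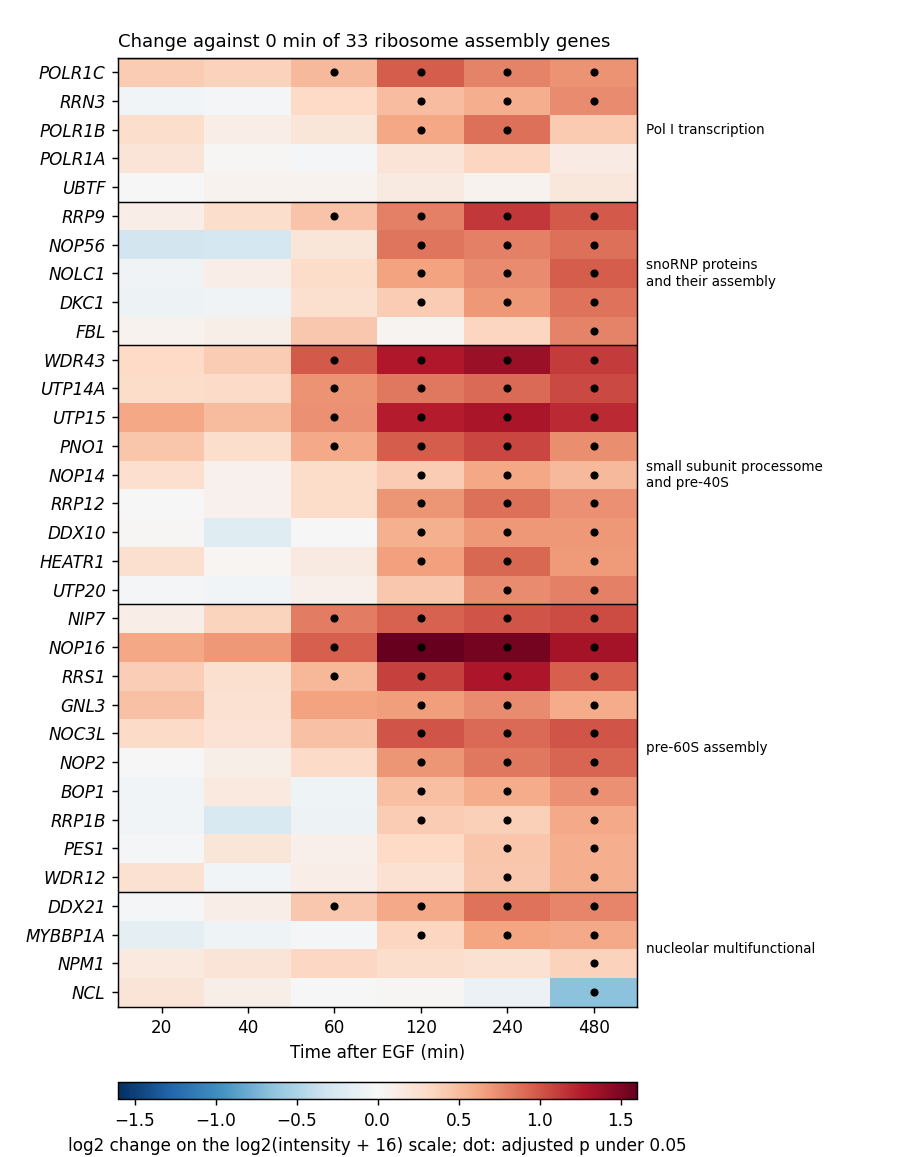
Log2 change against 0 min of each of the 33 members (rows, by role and by time of onset) at 6 times after EGF (columns, min); red is higher and blue is lower than at 0 min, and a dot marks an adjusted p under 0.05. Dots start at 60 min in 10 rows and at 120 min in 15 rows, and NCL at 480 min is the dot in blue.

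The order of onset was read from the calls: a member's onset was the first time at which it was called higher and was called higher again at the next time, or 480 min if called there only. The onset fell on 60 min for 10 members, on 120 min for 15, on 240 min for 3 and on 480 min for 2, and 3 members had none. As shares, 30.3% of the members had their onset at 60 min and 45.5% at 120 min, against 2.51% and 5.67% of all genes tested. At 240 min the shares were 9.09% of the members and 3.07% of all genes. At 480 min they were close, at 6.06% and 4.82%. The members with onset at 60 min were DDX21, NIP7, NOP16, PNO1, POLR1C, RRP9, RRS1, UTP14A, UTP15 and WDR43, which come from each of the 5 role groups. They do not form a separate class by size, since their changes at 60 min ran from 0.43 to 0.98 and those of the other 23 members from -0.08 to 0.64.

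The 60 min set depended on single arrays and on how probesets were summarised. It counted 5 members without array 3 of 60 min and 12 at most in the 6 refits that left out 1 array of either time. NIP7, POLR1C, RRP9, UTP14A and WDR43 were called in all 6. The call was lost in 1 of the 6 for NOP16, in 3 for DDX21, in 3 for UTP15, in 4 for PNO1 and in 5 for RRS1. With each probeset centred before the median, 13 members were called at 60 min (5.71% of all genes were). Of these 7 were among the 10, and UTP14A, UTP15 and RRS1 were not called. With the array index as a covariate 6 were called at 60 min (3.43% of all genes were). With the mean over probesets 14 were called (1086 of 16614 genes), and with the filter at the 75th percentile of signal 7 were (810 of 13303 genes). NIP7, POLR1C, RRP9 and WDR43 were called at 60 min in all 6 refits, with centred probesets and with the array index.

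The 300 bases around the starts of the 5 members called in all 6 refits are printed to show where the motif counted below them lies, and that not every early member holds it. The windows hold 250 bases before the annotated gene start and 50 bases from the start base on, 5′ to 3′ on the gene's strand, from RefSeq on GRCh38.p14. Capitals mark the E-box CACGTG, a motif bound by basic helix-loop-helix leucine zipper factors. It reads the same on both strands, so a search of the printed strand covers both. The windows are chr2:28894417-28894716 (plus strand) for WDR43, chr3:51941855-51942154 (minus strand) for RRP9, chrX:129905914-129906213 (plus strand) for UTP14A, chr16:69339522-69339821 (plus strand) for NIP7 and chr6:43516839-43517138 (plus strand) for POLR1C.
WDR43: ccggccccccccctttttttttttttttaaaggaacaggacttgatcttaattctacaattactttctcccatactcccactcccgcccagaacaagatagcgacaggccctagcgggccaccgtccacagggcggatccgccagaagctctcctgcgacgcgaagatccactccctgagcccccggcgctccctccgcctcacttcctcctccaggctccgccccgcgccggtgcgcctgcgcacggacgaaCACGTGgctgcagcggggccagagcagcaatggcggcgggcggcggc
RRP9: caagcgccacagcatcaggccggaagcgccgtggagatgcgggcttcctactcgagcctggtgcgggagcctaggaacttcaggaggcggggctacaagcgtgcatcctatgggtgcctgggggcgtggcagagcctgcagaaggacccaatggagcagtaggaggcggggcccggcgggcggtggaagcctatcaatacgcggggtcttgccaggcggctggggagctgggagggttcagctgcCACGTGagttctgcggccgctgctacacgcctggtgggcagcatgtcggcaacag
UTP14A: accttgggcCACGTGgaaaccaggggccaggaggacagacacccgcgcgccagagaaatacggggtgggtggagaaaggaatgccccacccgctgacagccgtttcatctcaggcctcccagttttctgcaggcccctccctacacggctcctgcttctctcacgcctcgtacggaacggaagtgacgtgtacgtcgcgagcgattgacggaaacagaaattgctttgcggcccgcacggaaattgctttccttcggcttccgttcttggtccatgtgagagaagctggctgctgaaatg
NIP7: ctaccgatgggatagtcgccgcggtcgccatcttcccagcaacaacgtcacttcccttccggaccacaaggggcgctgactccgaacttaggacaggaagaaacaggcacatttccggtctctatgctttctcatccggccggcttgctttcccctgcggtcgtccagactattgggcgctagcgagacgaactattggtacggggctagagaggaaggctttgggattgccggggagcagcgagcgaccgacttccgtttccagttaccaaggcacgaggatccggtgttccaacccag
POLR1C: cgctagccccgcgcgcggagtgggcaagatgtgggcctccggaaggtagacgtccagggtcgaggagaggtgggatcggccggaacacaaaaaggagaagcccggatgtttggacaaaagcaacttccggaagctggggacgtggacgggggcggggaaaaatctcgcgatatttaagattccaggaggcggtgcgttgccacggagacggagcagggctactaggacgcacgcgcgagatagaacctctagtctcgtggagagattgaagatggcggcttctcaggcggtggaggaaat

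Counting the start base as the first, the motif began at position 4 in WDR43, at -5 in RRP9 and far upstream, at -241, in UTP14A. These letters were not in the windows of NIP7 and POLR1C. A window was found for 28 of the 33 members, and 13 of the 28 held the motif (46.4%), as did 29 of 110 other ribosome assembly genes (26.4%), 6 of 16 genes of RNA polymerase III (37.5%), 4 of 60 ribosomal protein genes (6.67%) and 1517 of 13067 genes tested (11.6%). The median GC content of the windows was 61.8% for the members and 63.7% for all genes tested. The 13 members were DDX21, FBL, GNL3, MYBBP1A, NOC3L, NOP14, NOP2, PES1, PNO1, RRP9, UTP14A, UTP20 and WDR43, whose onsets ran from 60 to 480 min. A match is a description of the letters, and no binding was measured.

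In the transcription machinery of RNA polymerase I, POLR1B, POLR1C and RRN3 rose, and POLR1A and UBTF were not called at any time. Of these 5 members, 1 was called higher at 60 min (4.82% of all genes) and 3 at 120 min (11.2% of all genes). At 240 min 3 were (13.5% of all genes) and at 480 min 2 were (15.5% of all genes). POLR1C, a subunit shared by RNA polymerases I and III, had log2 values of 6.93, 7.36 and 7.14 at 0 min, 7.67, 7.58 and 7.40 at 20 min, 7.44, 7.65 and 7.45 at 40 min, 7.68, 7.58 and 7.74 at 60 min, 8.06, 8.01 and 8.26 at 120 min, 7.93, 7.97 and 7.92 at 240 min, and 7.84, 7.86 and 7.89 at 480 min. All its arrays at EGF times lay above all 3 at 0 min, and its level was highest at 120 min. Its change was 0.52 ± 0.11 (adjusted p = 0.0054) at 60 min and 0.97 ± 0.11 (adjusted p = 2.2e-06) at 120 min.

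POLR1B, a subunit of the catalytic core of RNA polymerase I, read 7.87, 8.04 and 8.09 at 240 min and 7.08, 7.14 and 7.14 at 0 min. Its arrays at 240 min were all above those at 0 min, with a change of 0.88 ± 0.20 (adjusted p = 0.0028). At 480 min it read 7.77, 7.26 and 7.60, a change of 0.42 ± 0.20 that missed the threshold (adjusted p = 0.14). Its replicates spread widely at 40 min, where they read 7.64, 6.77 and 7.30. POLR1A, the largest subunit, did not pass at any time, and its change was 0.34 ± 0.14 (adjusted p = 0.11) at 240 min. With centred probesets POLR1A passed at 240 min with a change of 0.32 (adjusted p = 0.04). It also passed there with the mean over probesets, at 0.35 (adjusted p = 0.028).

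RRN3, the factor that brings the polymerase to the ribosomal DNA promoter, read 8.71, 8.39 and 8.63 at 480 min and 8.02, 7.72 and 7.75 at 0 min. These arrays did not overlap, and RRN3 was higher by 0.75 ± 0.14 (adjusted p = 0.00038) at 480 min. At 120 min it read 7.96, 8.40 and 8.59, which overlapped 0 min, and its change of 0.49 ± 0.14 (adjusted p = 0.019) lost its call in 4 of the 6 refits without 1 array and with the array index as a covariate. Related copies of RRN3 lie elsewhere in the genome, so its signal may be shared with them. UBTF, which binds along the ribosomal DNA and keeps it open, read 8.04, 8.00 and 8.05 at 480 min and 8.00, 7.70 and 7.85 at 0 min. Its changes stayed between -0.01 and 0.18 over the 6 times, none of them called, and the change at 480 min was -0.02 with centred probesets. That last difference is smaller than its standard error of 0.07.

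**Figure D3:**
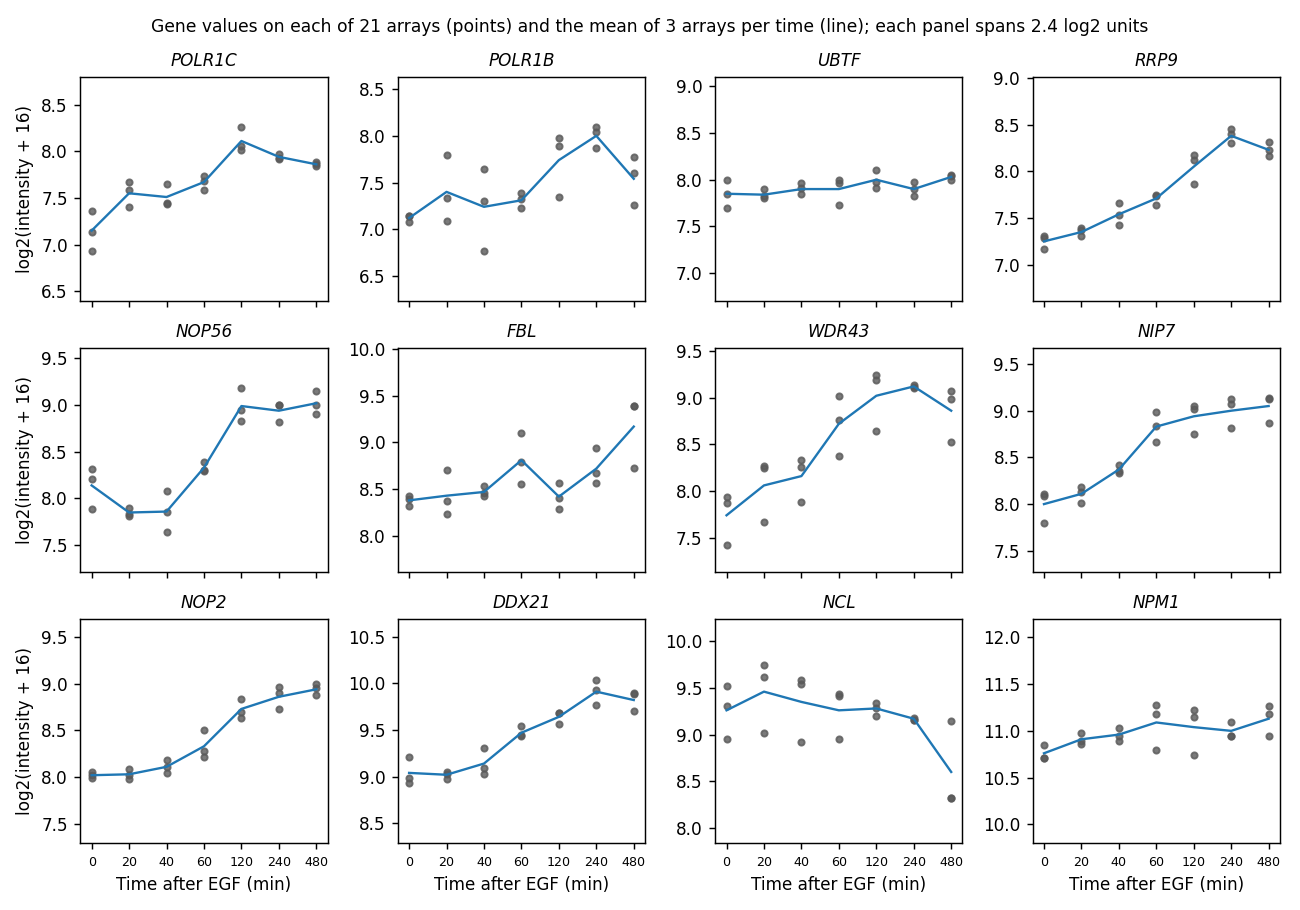
Log2(intensity + 16) of 12 members on each of the 21 arrays (points) and the mean of 3 arrays per time (line) against time after EGF (min, evenly spaced categories); each panel spans the same range of the log2 scale. The mean lines of RRP9, NOP2 and DDX21 climb over 60 to 240 min, that of NIP7 climbs mostly before 60 min, UBTF stays within 7.70 to 8.10, and the points of NCL at 480 min split into 9.15 and a pair at 8.32.

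All 5 snoRNP members measured were higher at 480 min (15.5% of all genes), and 4 of them at 120 min (11.2% of all genes). RRP9, a protein of the U3 snoRNP that guides the early cuts of the precursor, had log2 values of 7.17, 7.31 and 7.29 at 0 min, 7.31, 7.37 and 7.39 at 20 min, 7.66, 7.53 and 7.43 at 40 min, 7.75, 7.64 and 7.74 at 60 min, 7.86, 8.12 and 8.17 at 120 min, 8.40, 8.45 and 8.30 at 240 min, and 8.31, 8.23 and 8.16 at 480 min. Its arrays at 20 min lay just above those at 0 min, by a margin that rounding hides, and its mean climbed until 240 min, where the change of 1.13 ± 0.10 (adjusted p = 4.1e-08) was a 2.19-fold one on this scale. Its change at 60 min was 0.46 ± 0.10 (adjusted p = 0.0068).

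NOP56, a core protein of the box C/D snoRNPs, read 8.83, 8.95 and 9.18 at 120 min and 8.32, 8.21 and 7.89 at 0 min. At 20 min it read 7.90, 7.81 and 7.83, values that overlapped those at 0 min and gave a change of -0.29 ± 0.13 that was not called (adjusted p = 0.21). It rose by 0.85 ± 0.13 (adjusted p = 5.6e-05) at 120 min and stayed there, with 0.88 ± 0.13 at 480 min. NOLC1, a chaperone of snoRNPs, and DKC1, the pseudouridine synthase of the box H/ACA snoRNPs, climbed through 480 min to 0.97 ± 0.11 (adjusted p = 6.5e-07) and 0.87 ± 0.11 (adjusted p = 4.8e-06).

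FBL, the methyltransferase of the box C/D snoRNPs, was called at 480 min only. It read 9.39, 8.73 and 9.39 at 480 min and 8.39, 8.43 and 8.32 at 0 min, so array 2 at 480 min stood well below the other 2 and still above all of 0 min. Its change was 0.79 ± 0.17 (adjusted p = 0.0013) at 480 min and 0.04 ± 0.17 at 120 min. The size rests on the summary: 10 of its 13 probesets were higher at 480 min, with a median change of 0.23 over probesets, and with centred probesets the gene's change was 0.23 (adjusted p = 0.022). With the filter set at the 75th percentile of signal it was 0.22 and missed the threshold (adjusted p = 0.2).

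The small subunit processome and pre-40S factors held 4 of the 10 early members. All 9 were called higher at 240 min (13.5% of all genes) and 480 min (15.5% of all genes). WDR43, a processome protein, had log2 values of 7.42, 7.87 and 7.94 at 0 min, 8.25, 8.27 and 7.67 at 20 min, 8.33, 7.88 and 8.26 at 40 min, 8.76, 8.38 and 9.02 at 60 min, 8.64, 9.19 and 9.24 at 120 min, 9.14, 9.11 and 9.10 at 240 min, and 8.98, 8.53 and 9.07 at 480 min. At 60 min its 3 arrays lay above all 3 at 0 min, and at 240 min they lay within 0.04 of each other. Its change was 0.98 ± 0.20 (adjusted p = 0.004) at 60 min and 1.38 ± 0.20 (adjusted p = 3.3e-05) at 240 min, a 2.6-fold one, and all 22 of its probesets were higher at 240 min.

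UTP15 and UTP14A, also of the processome, rose by 1.31 ± 0.19 (adjusted p = 3.2e-05) and 0.90 ± 0.15 (adjusted p = 0.00016) at 240 min. For UTP14A the change at 480 min was 1.05 ± 0.15, and 0.65 (adjusted p = 0.00018) with centred probesets. PNO1, which binds the pre-40S particle, was higher by 0.60 ± 0.16 (adjusted p = 0.032) at 60 min and 1.07 ± 0.16 (adjusted p = 5.8e-05) at 240 min. The remaining processome proteins HEATR1, NOP14 and UTP20 reached 0.92 ± 0.17, 0.62 ± 0.11 and 0.76 ± 0.15 at 240 min. UTP20 was called from 240 min on, and its change at 120 min was 0.43 (adjusted p = 0.058).

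RRP12, needed for export of the pre-40S particle, read 7.71, 8.04 and 7.85 at 240 min and 7.20, 6.76 and 6.99 at 0 min. The arrays did not overlap, and the change was 0.88 ± 0.12 (adjusted p = 1.1e-05). DDX10, a DEAD-box RNA helicase, read 7.64, 7.72 and 8.06 at 120 min and 7.14, 7.30 and 7.29 at 60 min, against 7.37, 7.37 and 6.99 at 0 min. It was at its starting level at 60 min, with a change of 0.00, and higher by 0.57 ± 0.13 (adjusted p = 0.0046) at 120 min.

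All 10 pre-60S members were called higher at 240 min (13.5% of all genes) and 480 min (15.5% of all genes). Called from 60 min on were 3 of them (4.82% of all genes were called at 60 min). Of the 6 refits without 1 array, the call at 240 min was lost in 4 for RRP1B, in 3 for WDR12, in 2 for PES1 and in 1 for GNL3, and that at 480 min in 5 for GNL3. With the array index as a covariate RRP1B and WDR12 were not called at 240 min, nor GNL3 at 480 min. NIP7, which acts on maturing pre-60S particles, had log2 values of 8.11, 8.09 and 7.80 at 0 min, 8.18, 8.01 and 8.13 at 20 min, 8.33, 8.42 and 8.35 at 40 min, 8.84, 8.66 and 8.99 at 60 min, 8.75, 9.05 and 9.02 at 120 min, 8.82, 9.07 and 9.13 at 240 min, and 9.13, 8.87 and 9.14 at 480 min. Its arrays at 40 min already lay above those at 0 min, and most of its rise was complete at 60 min. The change was 0.82 ± 0.12 (adjusted p = 0.00011) at 60 min and 1.04 ± 0.12 (adjusted p = 1.8e-06) at 480 min, a 2.06-fold one.

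NOP2, a methyltransferase of the large subunit's ribosomal RNA, read 9.00, 8.88 and 8.95 at 480 min, 8.21, 8.28 and 8.50 at 60 min and 8.05, 8.02 and 7.99 at 0 min. Its 0 min arrays were tight, and its change was 0.31 ± 0.10 (adjusted p = 0.07) at 60 min and 0.93 ± 0.10 (adjusted p = 5.1e-07) at 480 min. NOP16, a component of pre-60S particles, had the largest change of all members in this summary, 1.61 ± 0.20 (adjusted p = 7.3e-06) at 120 min. Its arrays at 0 min spread widely, with an SD of 0.5. Without array 1 of 0 min the change of NOP16 was 1.35 (adjusted p = 5.5e-05). With centred probesets and all arrays the change at 120 min was 0.90 (adjusted p = 2.7e-05), and all 11 of its probesets were higher at 120 min, by 0.42 to 1.62.

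RRS1, which helps place the 5S ribonucleoprotein, and NOC3L rose by 1.29 ± 0.15 (adjusted p = 2.4e-06) and 0.91 ± 0.19 (adjusted p = 0.0017) at 240 min. BOP1, PES1 and WDR12, which form the PeBoW complex of large subunit processing, were higher at 480 min by 0.73 ± 0.11, 0.58 ± 0.12 and 0.58 ± 0.13. BOP1 was called from 120 min on and PES1 and WDR12 from 240 min on, with 0.32 (adjusted p = 0.081) for PES1 and 0.24 (adjusted p = 0.25) for WDR12 at 120 min. RRP1B, a nucleolar protein of pre-60S particles, changed by -0.24 at 40 min and -0.08 at 60 min, neither called, and was higher by 0.60 ± 0.12 (adjusted p = 0.00097) at 480 min.

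WDR12 read 8.37, 8.21 and 8.52 at 480 min and 7.71, 7.81 and 7.84 at 0 min. Its arrays at 480 min lay above all those at 0 min, and its values at 20 min, 8.20, 8.07 and 7.81, ran up to the lowest of them, while at 40 min it read 7.84, 7.62 and 7.77. GNL3, the nucleolar GTPase nucleostemin, read 8.08, 7.99 and 8.57 at 240 min and 7.51, 7.55 and 7.34 at 0 min. Its replicates spread widely at 480 min, where they read 8.17, 7.58 and 8.43. The change of GNL3 at 240 min, 0.75 ± 0.20 (adjusted p = 0.011), missed the threshold without array 3 of 240 min, at 0.57 (adjusted p = 0.087).

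The multifunctional nucleolar proteins were the mixed group. DDX21, a helicase that couples polymerase I transcription to processing, had log2 values of 9.21, 8.99 and 8.93 at 0 min, 9.05, 8.97 and 9.03 at 20 min, 9.31, 9.03 and 9.09 at 40 min, 9.43, 9.45 and 9.54 at 60 min, 9.56, 9.68 and 9.68 at 120 min, 9.77, 9.93 and 10.04 at 240 min, and 9.88, 9.70 and 9.90 at 480 min. All 3 arrays exceeded those at 0 min from 60 min on, and its change was 0.43 ± 0.11 (adjusted p = 0.017) at 60 min and 0.87 ± 0.11 (adjusted p = 3.0e-06) at 240 min. MYBBP1A, a nucleolar protein of ribosomal RNA synthesis and processing, read 8.66, 8.77 and 8.73 at 240 min and 8.31, 7.97 and 7.99 at 0 min. Its changes were -0.14 at 20 min and -0.02 at 60 min, neither called, and it was higher by 0.34 ± 0.11 (adjusted p = 0.034) at 120 min and 0.63 ± 0.11 (adjusted p = 0.00017) at 240 min. The call at 120 min was lost in 5 of the 6 refits without 1 array.

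NPM1, the histone chaperone nucleophosmin, had the highest signal of the members and read 11.27, 10.94 and 11.18 at 480 min and 10.71, 10.85 and 10.71 at 0 min. The arrays did not overlap, the change was 0.37 ± 0.13 (adjusted p = 0.048), and the call was lost in 10 of the other settings tried, 5 of them refits without 1 array, so that only the refit without array 2 of 480 min kept it (adjusted p = 0.023). Many processed copies of NPM1 exist in the genome, so its signal may be shared with them. NCL, the RNA-binding protein nucleolin, had log2 values of 8.95, 9.31 and 9.52 at 0 min, 9.75, 9.62 and 9.02 at 20 min, 9.59, 8.92 and 9.54 at 40 min, 9.41, 8.95 and 9.43 at 60 min, 9.20, 9.34 and 9.29 at 120 min, 9.16, 9.16 and 9.18 at 240 min, and 9.15, 8.32 and 8.32 at 480 min.

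NCL was not called up to 240 min, and at 480 min array 1 lay inside the range of 0 min while arrays 2 and 3 lay below it. Its change of -0.66 ± 0.22 (adjusted p = 0.036) at 480 min was the only called fall among the members at any time, and 27 of its 29 probesets were lower. The fall was not called in 8 of the other settings tried, among them each of 4 refits without array 2 or 3 of 480 min or of 0 min (-0.63 to -0.52, adjusted p = 0.093 to 0.17), the mean over probesets, -0.35 (adjusted p = 0.13), and centred probesets, -0.38 (adjusted p = 0.096).

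The order within the group was also read as the time at which a member's mean profile, joined by straight lines between times, first passed 50% of its largest change. It was given for the 30 members whose largest change was a called rise. In members with onset at 60 min it ran from 46.9 min in NIP7 to 79.1 min in RRP9, with 72.1 min in RRS1, and members of later onset fell among and before them, with 35.6 min in NPM1, 63.6 min in NOC3L and 68.3 min in NOP14, so that both readings ordered the members differently. Others of 60 min onset had 48.5 min in NOP16, 49.7 min in WDR43, 50.9 min in UTP14A and 54.8 min in POLR1C. The latest but for WDR12 were 108 min in BOP1, 108 min in RRP1B, 114 min in PES1, 115 min in UTP20, 116 min in MYBBP1A and 131 min in DKC1.

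Leaving out 1 array at a time moved these times little in some members and much in others. They ran from 45.7 to 49.1 min in NIP7, from 46.3 to 53.2 min in WDR43, from 104 to 112 min in BOP1 and from 112 to 160 min in DKC1. The earliest and the latest member had no firm place: GNL3, at 16 min, moved to 46.8 min without array 1 of 20 min, and WDR12, at 154 min, moved to 16.7 min without array 3 of 20 min. FBL, at 57.9 min, moved to 268 min without array 3 of 60 min and to 298 min without array 2 of 480 min, and its profile had a peak at 60 min and another at 480 min. Without array 3 of 20 min, UTP15 moved from 53.5 to 16.7 min and PNO1 from 55.9 to 17.3 min. UTP15 moved to 19.7 min without array 3 of 0 min, NOP14 from 68.3 to 18.3 min without array 1 of 20 min, and RRN3 from 78.5 to 131 min without array 3 of 120 min. The role groups overlapped, with medians of 62.2 min over 3 multifunctional proteins, 68.3 min over 9 small subunit factors, 77.6 min over 10 pre-60S factors, 78.5 min over 3 polymerase I members and 82.7 min over 5 snoRNP members. No difference in time between members or groups was tested.

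**Figure D4:**
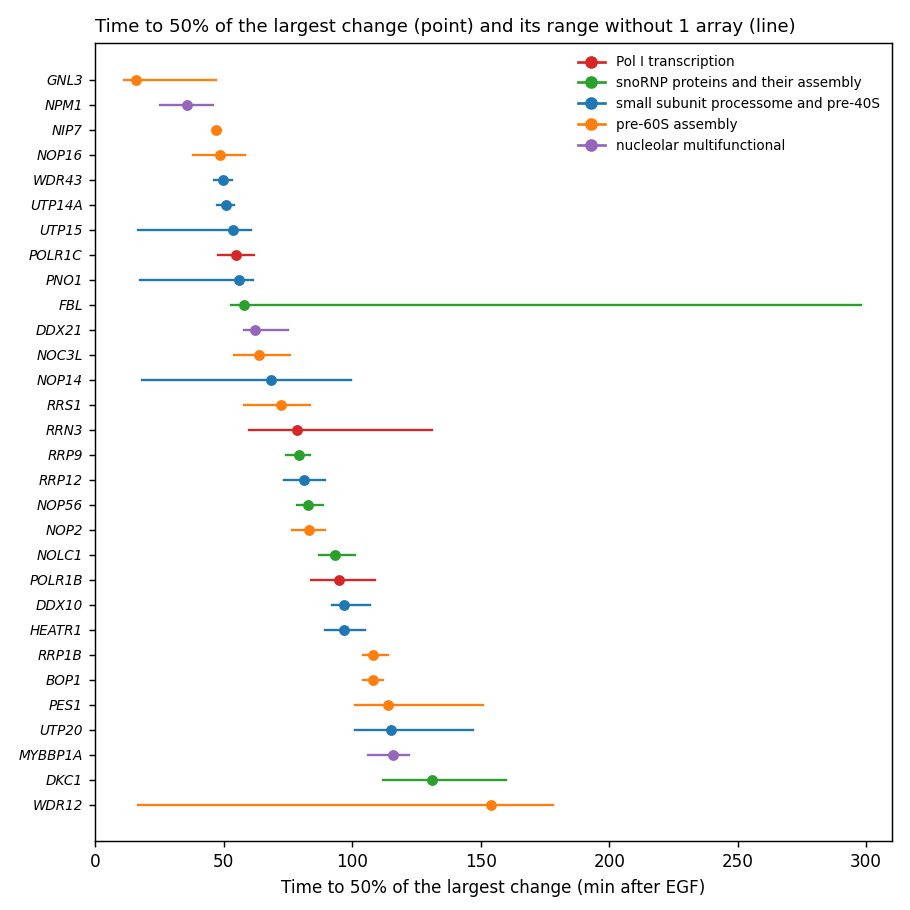
Time (min after EGF) at which the mean profile of each of 30 members first passed 50% of its largest change (point) and the range of that time when each array was left out in turn (line), coloured by role and ordered from early (top) to late. NIP7, WDR43 and BOP1 have short lines, while the lines of WDR12, FBL, NOP14, UTP15 and PNO1 span much of the order.

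Other genes of ribosome production were higher as well. Of 128 other ribosome assembly genes, 22 were called higher at 60 min (4.82% of all genes), 60 at 120 min (11.2%), 71 at 240 min (13.5%) and 80 at 480 min (15.5%). Their median change was 0.48 at 480 min, and NOP53 was the 1 called lower, at 240 min and by -0.66 ± 0.10 (adjusted p = 4.7e-05) at 480 min. Called higher at 480 min were 4 of 12 other polymerase I genes, 8 of 12 other snoRNP genes, 26 of 44 small subunit factors, 33 of 46 large subunit factors and 9 of 14 genes of the RNA exosome, which trims the precursor. Among the polymerase I genes POLR1F and POLR1G rose by 1.06 ± 0.11 (adjusted p = 6.8e-07) and 0.83 ± 0.11 (adjusted p = 6.7e-06) at 240 min, and TAF1A, of the promoter selectivity factor, by 0.95 ± 0.16 (adjusted p = 0.00015), BAZ1B joined them at 480 min with 0.48 ± 0.13 (adjusted p = 0.011), while TAF1D changed by 0.48 ± 0.19 (adjusted p = 0.082) at 240 min. BAZ1B, NOP53 and the genes named below beyond the first 4 of a list by F-test p were chosen after their values were seen.

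Among the other snoRNP genes the assembly factors NUFIP1, NAF1 and SHQ1 and the core protein NOP10 were higher by 0.88, 0.70, 0.90 and 0.57 at 240 min. The small subunit factors UTP4, PWP2, TSR1 and NOL6 rose by 0.91, 0.91, 0.87 and 0.81. The large subunit factors GNL2, URB2, GTPBP4 and LYAR rose by 1.17, 1.10, 0.70 and 1.35. Of the exosome genes MPHOSPH6, DIS3 and EXOSC2 were higher at 480 min, by 1.28 ± 0.19 (adjusted p = 3.4e-05), 0.65 ± 0.14 (adjusted p = 0.0014) and 0.63 ± 0.10 (adjusted p = 6.1e-05), and EXOSC7 changed by 0.04 ± 0.10 (adjusted p = 0.85).

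The ribosomal proteins themselves moved little. Of 70 measured ribosomal protein genes 2 were higher at 120 min (RPS24 and RPL32), 2 at 240 min (RPL32 and RPS7) and 5 at 480 min (RPL24, RPL27, RPL27A, RPL39 and RPSA), when 3 were lower (RPL19, RPS2 and RPS28). Of all genes tested, 11.2% were higher at 120 min, 13.5% at 240 min and 15.5% at 480 min, when 7.11% were lower. The median change of the ribosomal protein genes at 480 min was 0.04. By the smallest F-test p they were led by RPS24 (0.46 at 120 min), RPS28 (-0.46 ± 0.12 (adjusted p = 0.0073) at 480 min), RPL19 (-0.28 ± 0.10 (adjusted p = 0.043) at 480 min) and RPS20 (-0.03 at 480 min, adjusted p = 0.89). The F-test over all times called 12 of the 70 genes (27.5% of all genes). RPS20 was among the 12, and its values at other times are not printed here. Processed copies of these genes are many, and signal shared with them was not measured. RNA polymerase III, which makes the 5S ribosomal RNA and transfer RNAs, had 5 of 20 genes higher at 120 min (GTF3C4, POLR3C, POLR3D, POLR3G and POLR3K), 4 at 240 min (BDP1, GTF3C4, POLR3A and POLR3G) and 7 at 480 min. POLR3G, a subunit of one form of that enzyme, was higher by 1.74 ± 0.18 (adjusted p = 3.4e-07) at 480 min, with 0.44 for POLR3K and 0.42 for POLR3A, and GTF3C4 changed by 0.28 ± 0.12 (adjusted p = 0.11).

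Products of the MAX family bind the E-box in pairs. Of 9 genes on a list of that family and FBXW7, 2 were higher (15.5% of all genes) and 2 lower (7.11% of all genes) at 480 min. MXD1 was higher by 0.89 ± 0.14 (adjusted p = 0.00014) at 60 min and 1.31 ± 0.14 (adjusted p = 4.3e-07) at 120 min, MNT by 0.60 ± 0.11 (adjusted p = 0.0014) at 60 min and not at 480 min (0.01, adjusted p = 0.98), MLX by 0.43 ± 0.14 (adjusted p = 0.028) at 480 min, and MXD4 and MXI1 were lower, by -0.28 ± 0.10 (adjusted p = 0.044) and -0.49 ± 0.13 (adjusted p = 0.008) at 480 min.

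**Figure D5:**
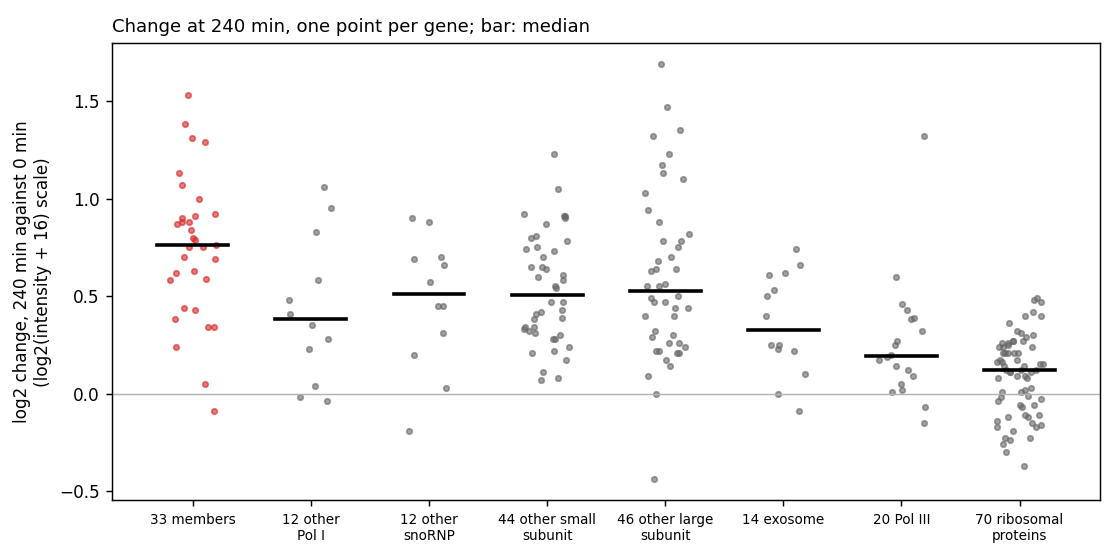
Log2 change at 240 min against 0 min of the 33 members and of genes of 7 other lists of ribosome production; each point is a gene and the bar is the median of its list. The members' bar lies at 0.76, and the ribosomal proteins cluster around their bar at 0.12.

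Some arrays moved many members at once. At 40 min array 1 had 26 of the 33 members above the mean of that time and array 2 had 6, at 60 min array 3 had 27, at 120 min array 1 had 4 and array 3 had 31, at 240 min array 1 had 6 and array 3 had 25, and at 480 min array 2 had 4 while arrays 1 and 3 had 26 and 25. The array index varied most at 120 min, with an SD of 0.10, against 0.02 at 0 min. With the index as a covariate the members called higher were 19 at 120 min (8.46% of all genes), 26 at 240 min (12.7%) and 27 at 480 min (15.3%). When each array of either time was left out in turn, 17 members stayed called in all 6 refits at 120 min, 24 at 240 min and 27 at 480 min. At 120 min the call was lost in 5 of the 6 for GNL3, MYBBP1A and POLR1B, in 4 for RRN3 and RRP1B, in 3 for HEATR1, in 2 for NOP14 and in 1 for DKC1. The values at 3 arrays of a time did not overlap those at 0 min, on the higher side, for 20 members at 60 min (15.1% of all genes), 28 at 120 min (17%), 31 at 240 min (23.1%) and 31 at 480 min (21.6%).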

How the data were processed

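MCF10A RNA from 7 times after EGF was measured on 21 exon arrays, 3 biological replicates per time per the labels. The authors deposited linear intensities, 1 for each probeset on each array, already equalised between arrays as the array medians show. The submitters' processing notes name PLIER and version 1.1 of Affymetrix Expression Console. For their settings, the background correction and the array's genome build, the sources used here give nothing.

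The platform annotation gave 354600 of 1384231 probesets 1 gene symbol, 14898 several and the other 1014733 none. Symbols were updated through the RefSeq gene list of GRCh38.p14 where a unique synonym allowed (16426 current, 2950 updated, 121 kept). From the deposited intensities, log2(intensity + 16) was computed, which understates changes of dim genes. Single-gene probesets with a mean of at least 5.18 on this scale (20.2 intensity units, the median of all probesets) were kept, 73.7% of them, and a gene's value was their median, with at least 3 required. All arrays entered 1 linear model with a mean per time in limma 3.58.1 (R 4.3.3), and p-values were adjusted by Benjamini-Hochberg over 16614 genes within each contrast, two-sided. Values after ± beside a change are limma's standard errors with 3 arrays per time. There were 14 residual degrees of freedom and 7.08 from the prior. Replicates of a time had a median SD of 0.169 over all genes and 0.159 over the members. The script was tested on simulated data.

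No pairing by the letters that number replicates was detected. Deviations from the time means correlated between same-letter arrays with a median of -0.01 (-0.54 to 0.56), and between different letters with 0.01. Such medians cannot show that the arrays were unpaired. All members are named, and values per array are given for the 2 members of each role group with the smallest F-test p, for members that fell, for the earliest and latest by time to 50% of the largest change, and for chosen members by role. WDR43 was added to these after its values were seen. A further gene that the rule names was not analysed here. Members and gene lists were chosen with earlier results of these data known. Alternatives covered the normalisation, the pseudocount (1 and 64), the filter, the summary over probesets, the variance model, a replicate block, the array index and leaving out each array. Promoter sequences are those of RefSeq on GRCh38.p14, matched by symbol. Figures were drawn with matplotlib.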

Additional observations from a re-analysis of the deposited data

How the results depend on the processing

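The members called higher at 240 and 480 min, and by the F-test over all times, stayed within 1.5 times the reported counts under each alternative. Leaving out each array in turn gave 0 to 3 members at 20 min, 0 to 2 at 40 min, 5 to 12 at 60 min, 17 to 26 at 120 min, 25 to 27 at 240 min, 27 to 29 at 480 min and 27 to 30 by the F-test. The 3 at 20 min came without array 3 of 20 min, the 2 at 40 min without array 2 of 0 min, and the 5 at 60 min without array 3 of 60 min. At 40 min 1 member was called with no filter on dim probesets and 1 with the array index as a covariate, and with that covariate 6 were called at 60 min. The index also moved the split over all genes, to 1406 higher and 965 lower at 120 min, against 1862 and 533 without it. The replicate block gave 10, 24, 28 and 28 members at 60, 120, 240 and 480 min and 28 by the F-test. Among single members, UBTF at 480 min turned to -0.02 with centred probesets, an alternative chosen after seeing the data, and the cause was not tested. NPM1 lost its call in 10 settings and NCL in 8. Precision is limited by the 3 arrays per time: standard errors of a member's change ran from 0.10 to 0.22.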
